A study of Rattus norvegicus with 26 samples.

Results

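Genes whose transcripts were scarce in cultured rat astrocytes, compared with each of the other 3 kinds of primary brain cell culture, were collected by a rule on mean levels. A gene was taken where the mean log2 level of the 4 astrocyte arrays lay at least 1 log2 unit below the mean of the neuron, the oligodendrocyte and the microglia cultures. By this rule 229 of 14217 genes were found (1.61%), and over probe sets 414 of 31042. The rule used the measured levels of the 16 culture arrays, so everything given for the cultures, counts of calls included, is a description and no support. The mixture arrays were hybridised separately, but from RNA of the same cultures.

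The series measured total RNA on a rat expression array with 26 hybridisations. Each of 4 kinds of primary culture from cerebral cortex was hybridised on 4 arrays, written here as N1 to N4 for neuronal, A1 to A4 for astrocytic, O1 to O4 for oligodendrocytic and M1 to M4 for microglial cultures. The cultures were labelled as biological replicates, and 15 of the 16 as made from newborn rats at postnatal day 1, while M4 carries no age. The labels give no strain, culture time or purity, and name no treatment or genetic change for any group. The label of M4 describes it in the words used for mixtures, while its title and cell type give a microglial culture, and it was kept as one. Another 10 arrays measured RNA mixed in known shares from these same cultures, 2 arrays per mixture. The neuronal share was 0.25 in NA1, 0.5 in NA2 and 0.75 in NA3, and astrocyte RNA made up what was left. In NAO and NAOM the neuronal share stayed at 0.5. The remainder of NAO was split evenly between astrocyte and oligodendrocyte RNA (0.25 each), and that of NAOM into shares of 0.2 from astrocytes, 0.2 from oligodendrocytes and 0.1 from microglia. The first array of each mixture drew on N1, A1, O2 and M2, the second on N2, A4, O4 and M3, so A2 and A3 entered no mixture. A primary culture is a dish of dissociated cells and models the cell type only as far as it is pure and keeps its state in the dish.

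Astrocytes and oligodendrocytes arise from the same neural precursors as neurons, whereas microglia are macrophages that enter the brain from the yolk sac. Neurons, process-bearing oligodendrocytes and motile microglia all remodel actin and microtubules through small GTPases, which exchange factors switch on and GTPase-activating proteins switch off. Astrocytes in culture grow as flat, polygonal cells and are known for glutamate uptake, intermediate filaments and gap junctions.

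The members with the largest differences were Nap1l5, Ptpro, Rapgef5 and Coro1a, and their promoters are shown because these 4 genes alone lay at least 4 log2 units below every other culture. The sequences are the 250 bases before the annotated gene start in RefSeq (assembly GRCr8), read 5′ to 3′ on the gene's strand. They come from chr4:89354705-89354954 on the minus strand for Nap1l5, chr4:171895261-171895510 on the plus strand for Ptpro, chr6:144587912-144588161 on the plus strand for Rapgef5 and chr1:190731104-190731353 on the minus strand for Coro1a. Capitals mark any of 6 motifs searched on both strands: the GC box GGGCGG, the CCAAT box CCAAT, the TATA box TATAAA, the E-box CAGCTG, the PU.1 core GAGGAA and the SOX core ACAAAG.
Nap1l5: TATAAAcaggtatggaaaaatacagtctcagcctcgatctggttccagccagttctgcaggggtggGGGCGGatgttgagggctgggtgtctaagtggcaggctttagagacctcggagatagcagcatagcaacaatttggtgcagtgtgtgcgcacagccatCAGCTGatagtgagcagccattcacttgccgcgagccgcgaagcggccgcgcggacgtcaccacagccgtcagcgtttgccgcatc
Ptpro: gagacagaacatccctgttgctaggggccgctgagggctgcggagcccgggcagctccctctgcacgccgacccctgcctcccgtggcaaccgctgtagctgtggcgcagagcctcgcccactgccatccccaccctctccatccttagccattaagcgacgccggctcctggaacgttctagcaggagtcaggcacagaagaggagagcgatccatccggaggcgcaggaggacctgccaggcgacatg
Rapgef5: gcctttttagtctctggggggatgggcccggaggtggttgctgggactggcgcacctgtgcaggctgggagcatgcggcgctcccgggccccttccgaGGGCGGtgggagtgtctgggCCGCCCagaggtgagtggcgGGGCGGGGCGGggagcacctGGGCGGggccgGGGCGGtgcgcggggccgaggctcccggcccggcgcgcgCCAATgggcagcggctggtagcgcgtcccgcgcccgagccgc
Coro1a: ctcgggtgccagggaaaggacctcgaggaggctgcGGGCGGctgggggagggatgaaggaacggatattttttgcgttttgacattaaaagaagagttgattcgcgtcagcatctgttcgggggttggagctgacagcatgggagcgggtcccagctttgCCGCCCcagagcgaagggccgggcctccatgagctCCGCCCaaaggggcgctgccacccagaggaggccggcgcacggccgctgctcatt
The Rapgef5 window held 6 GC boxes and 1 CCAAT box, the Coro1a window 3 GC boxes, the Nap1l5 window 1 GC box, 1 TATA box and 1 E-box, and the Ptpro window held none of the 6 motifs. Promoter windows were found for 184 of the 229 members and for 11700 of all genes. Median GC content was 64.8% in the members' windows and 59.2% over all. A GC box was present in 60.9% of the members' windows against 54.2% of all windows, and a CCAAT box in 28.3% against 35.1%. The E-box was present in 15.2% against 12.8%, the SOX core in 13.6% against 12.5%, the PU.1 core in 21.2% against 23.1% and the TATA box in 5.43% against 8.06%. These shares describe letters only and were not tested.

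Nap1l5, a gene of the nucleosome assembly protein family that is imprinted in mouse and human, had the largest difference of all members. Its log2 level was 5.03, 4.08, 3.91 and 3.70 in A1 to A4, against 10.91, 10.61, 11.74 and 11.70 in N1 to N4. It measured 10.79, 10.76, 9.74 and 10.40 in O1 to O4 and 9.49, 9.01, 9.07 and 8.54 in M1 to M4. The highest astrocyte array thus lay more than 3 log2 units below the lowest array of any other culture. The difference to the nearest culture, microglia, was 4.85 ± 0.33 log2 units (SE of the limma fit, n = 4 per culture), a 28.8-fold difference. The astrocyte mean of 4.18 lay below the median of every culture array (5.25 to 5.31), and how far it lay above background is not known, since no detection calls were used.

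Ptpro encodes a receptor-type tyrosine phosphatase known from podocytes and growing axons. Its level was 3.94, 3.67, 3.70 and 4.29 in A1 to A4, and 8.83, 8.78, 8.97 and 9.01 in N1 to N4. The oligodendrocyte arrays read 8.37, 8.38, 9.12 and 9.05 and the microglia arrays 8.53, 8.73, 8.49 and 8.89. The 12 arrays outside the astrocyte cultures spanned less than 1 log2 unit, and all lay far above the astrocyte arrays. The difference to microglia was 4.76 ± 0.18 log2 units.

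Rapgef5, an exchange factor that activates Rap GTPases, read 4.11, 3.76, 4.03 and 4.10 in A1 to A4. The neuron arrays read 8.71, 8.76, 8.70 and 8.71, the oligodendrocyte arrays 9.38, 9.33, 8.89 and 9.46, and the microglia arrays 8.92, 9.28, 9.70 and 10.20. As for Ptpro, the other cultures were close to each other, and no array of theirs came near the astrocyte arrays. The difference to the nearest culture, here the neurons, was 4.72 ± 0.21 log2 units.

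Coro1a, a coronin that binds actin and is abundant in leukocytes, read 9.75, 9.65, 9.41 and 9.45 in N1 to N4 and 9.48, 9.88, 10.41 and 9.49 in O1 to O4. It was highest in microglia at 10.67, 10.92, 11.12 and 11.48. The astrocyte arrays read 4.61, 5.96, 6.23 and 4.08, so A2 and A3 stood above A1 and A4 while all 4 stayed below every other array. The difference to the neurons was 4.34 ± 0.38 log2 units. Cd68, a lysosomal protein of macrophages, read 5.75, 7.66, 7.65 and 4.72 in A1 to A4, so the same astrocyte arrays were higher in it, and its part in the Coro1a values was not tested. With A2 and A3 left out, an alternative added after the data were seen, 197 genes met the rule, 188 of them among the 229.

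**Figure D1:**
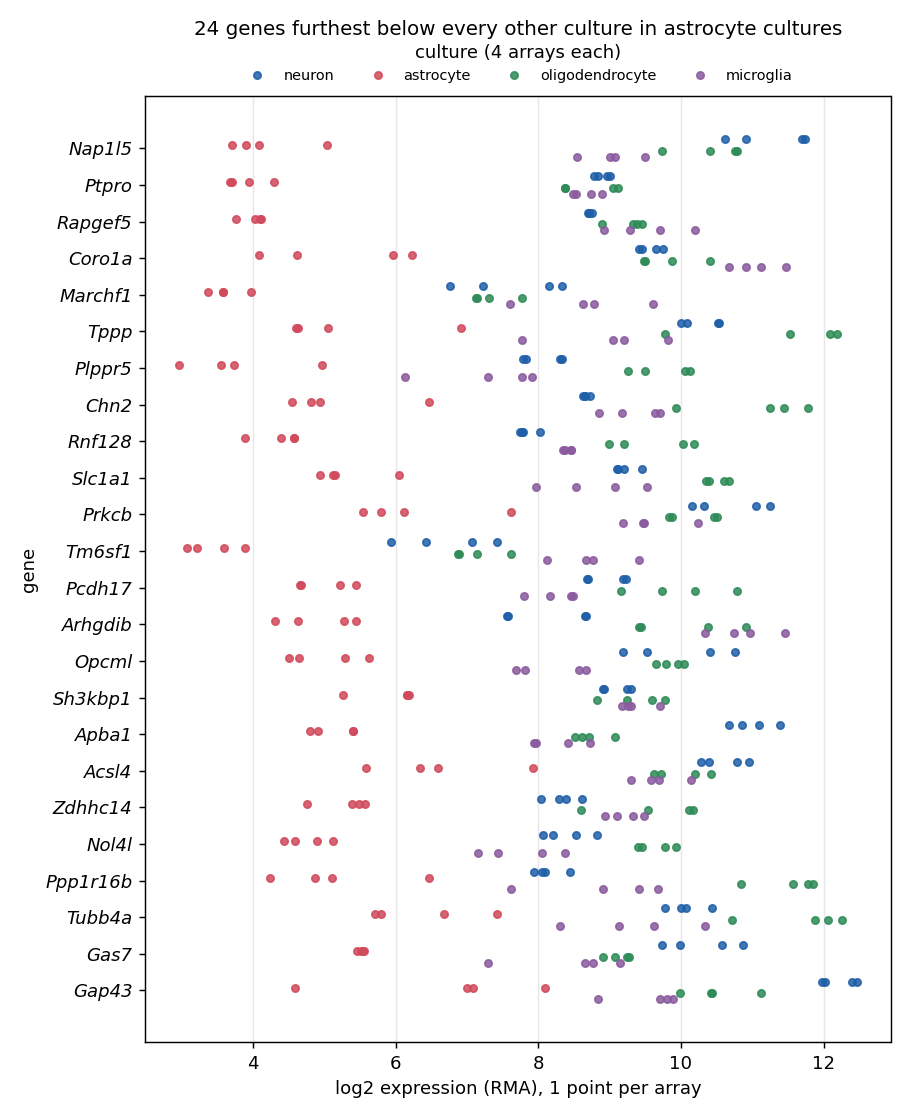
Log2 level of the 24 genes with the largest difference, 1 point per array, coloured by culture (4 arrays each), genes ordered by the difference between the astrocyte mean and the nearest other culture mean. All 4 astrocyte arrays lie to the left of every other array in each of these genes, from Nap1l5 with a difference of 4.85 to Gap43 with 2.87.

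Over the 229 members the median difference to the nearest culture was 1.54 log2 units, a 2.90-fold difference, with a range from 1.00 to 4.85. Over all genes the same quantity had a median of -0.29. The difference reached 1.5 in 117 members, 2 in 62 and 3 in 19. Just inside the threshold lay Ddhd1 at 1.01, Cep170 at 1.00 and Ube3al1 at 1.00, and just outside it Cdh10, Cplx1 and Stxbp5 at 0.99 each. The median level of the members was 5.58 in astrocyte cultures, 8.68 in neurons, 8.51 in oligodendrocytes and 8.09 in microglia, against 6.73, 6.51, 6.61 and 6.54 over all genes. In 90 members the astrocyte mean lay below the median of every array, and in 76 of these each of the other culture means lay above it.

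Every astrocyte array lay below every other culture array in 193 of the 229 members, where 4.42% of all genes showed this. In limma's 3 contrasts (adjusted p under 0.05 and a difference of at least 1 in each), 213 members were called lower than each other culture, against 1.5% of all genes. Both counts rest on the values the rule used and support nothing by themselves. For scale, 840 genes were called higher in astrocyte cultures than in each other culture (5.91%). The 16 members that were not called include Syt4, a synaptotagmin, which read 7.80, 6.31, 6.63 and 4.16 in A1 to A4 and 9.39, 9.18, 5.82 and 9.13 in M1 to M4. M3 lay below 3 astrocyte arrays there. Olig1, a transcription factor of the oligodendrocyte lineage, overlapped too, with 8.84 in A1 against 6.85 and 8.32 in N1 and N2. Ube3al1 was not called either (largest limma adjusted p = 0.12), with 5.42 in A4 against 4.49 and 4.07 in N1 and N2.

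Levels of markers bear on how each culture is read, and in bulk RNA fewer cells of a type cannot be told apart from less RNA per cell. The mean of 14 astrocyte markers was 8.30 to 9.69 in the astrocyte arrays, 5.52 to 5.97 in microglia and 6.17 to 7.69 in oligodendrocyte cultures. It was 6.63, 7.45, 8.61 and 8.33 in N1 to N4, so that N3 and N4 overlapped with A4, the lowest astrocyte array. The 17 microglia markers averaged 10.49 to 11.02 in microglia, 8.07 to 9.02 in oligodendrocyte cultures, 4.70, 5.94, 6.04 and 4.79 in A1 to A4 and 4.52 to 4.72 in neurons. The 12 oligodendrocyte lineage markers averaged 9.89 to 10.39 in oligodendrocyte cultures and 8.68, 8.25, 7.41 and 7.62 in M1 to M4. Mbp, the myelin basic protein, read 12.57, 12.41, 10.97 and 12.36 in M1 to M4 and 11.19 in A1 against 6.29 to 7.76 in the other astrocyte arrays. The microglia cultures thus carried oligodendrocyte transcripts and the oligodendrocyte cultures microglial ones. The same lineage list averaged 6.40, 5.86, 5.75 and 5.87 in A1 to A4, below every microglia array, but single oligodendrocyte and microglia markers overlapped with microglia arrays. Cldn11, a tight junction protein of myelin, read 9.32 in A4 against 7.07 to 9.63 in microglia, and Tmem119, a microglial surface protein, read 8.52 in A4 against 7.10 to 8.21 in microglia. Markers of other cell types were also high in the astrocyte arrays. The 10 fibroblast markers averaged 8.42 in A4 and 6.85 to 6.96 in A1 to A3. The list was not uniform. Col1a1, Col1a2 and Col3a1 read 13.01, 13.11 and 12.56 in A4 against 6.78 to 8.24 in A1 to A3, and Pdgfrb was also highest in A4. Ogn was level at 9.96 to 10.14, and Col6a1 and Col6a2 were lowest in A4, at 8.29 and 8.88. Dcn, Lum and Slc6a13 read 3.13 to 4.25 in all astrocyte arrays. The 7 ependymal markers were lowest in A4, at 8.82, 7.57, 7.5 and 5.08 in A1 to A4, against 4.33 to 4.98 in all other culture arrays. Dynlrb2 of that list, a dynein light chain, read 11.52, 10.64, 10.47 and 6.03. The 10 pericyte and smooth muscle markers averaged 6.45, 6.84, 6.86 and 7.45 in A1 to A4 and 4.71 to 5.68 elsewhere, with Tagln, an actin-binding protein of smooth muscle, at a mean of 13.39 in astrocytes. Limma called 6 fibroblast, 6 ependymal and 4 pericyte and smooth muscle markers higher in astrocytes than in each other culture. Other genes of the last list were level. Rgs5 averaged 3.80 in astrocytes and 3.62 to 3.64 elsewhere, Kcnj8 3.69 against 3.64 to 3.65, and Abcc9 3.41 against 3.30 to 3.48. The part of fibroblast, ependymal, pericyte or smooth muscle cells in the members' values was not tested.

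Of the members, 103 were highest in neurons, 86 in oligodendrocytes and 40 in microglia. The nearest culture was microglia for 124, neurons for 55 and oligodendrocytes for 50. Among the 86 highest in oligodendrocytes, microglia were the nearest culture for 53, and the mean of the 86 over M1 to M4 was 8.32, 8.09, 7.47 and 7.72, in the order of the oligodendrocyte lineage markers on the same arrays. Among the 103 highest in neurons, 71 were nearest to microglia, and their mean over M1 to M4 was 7.51, 7.45, 7.13 and 7.20, in that order again. The 40 highest in microglia ran differently over the same arrays, at 9.27, 9.43, 9.46 and 9.72. The part of oligodendrocyte RNA in the microglia values was not tested. In the astrocyte arrays, the members highest in oligodendrocytes averaged 6.21 in A1 and 5.67 to 5.90 in A2 to A4, and those highest in microglia 6.04 and 6.14 in A2 and A3 against 5.89 and 5.99 in A1 and A4. A1 was the highest astrocyte array for 87 members, A4 for 89, A2 for 28 and A3 for 25.

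**Figure D2:**
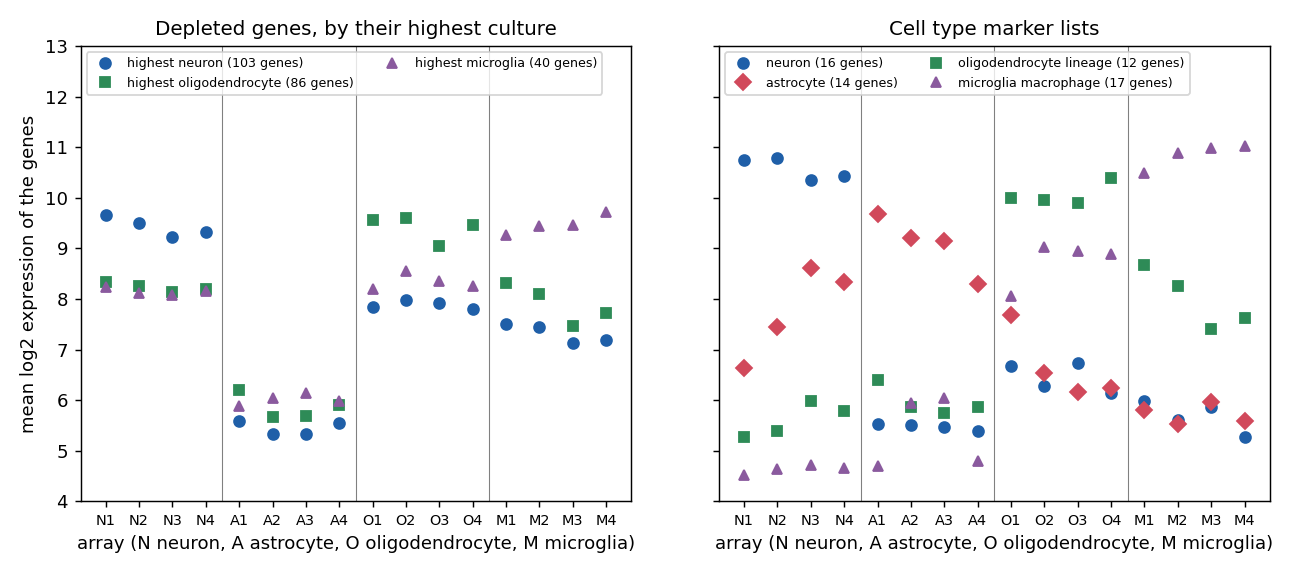
Mean log2 level per culture array of the 229 members split by their highest culture (left) and of 4 cell type marker lists (right), 1 point per list and array. The members lie near 5.3 to 6.2 in every astrocyte array, while the oligodendrocyte lineage markers fall from 8.68 in M1 to 7.41 in M3 as do the members highest in oligodendrocytes, from 8.32 to 7.47.

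In 54 members the other 3 cultures lay within 1 log2 unit of each other, so that the astrocyte culture alone stood apart. These include Ptpro, Rapgef5, Sh3kbp1 and Acsl4, and also Tfrc, the transferrin receptor, and Atp6v0b, a proton pump subunit. The median range among the other 3 cultures was 1.78 log2 units over all members. At the other end stood genes that were strong in 1 culture and dim in the rest. Snap25, the SNARE protein of synaptic vesicle fusion, read 12.59 ± 0.05 in neurons, 5.42 ± 0.96 in oligodendrocytes, 5.18 ± 0.95 in microglia and 3.61 ± 0.26 in astrocytes (mean ± SD, n = 4). Tmem130 read 12.10 in neurons and 5.53, 5.28 and 4.26 in oligodendrocytes, microglia and astrocytes. It met the rule on means but was not called lower than each other culture (largest limma adjusted p = 0.0778).

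**Figure D3:**
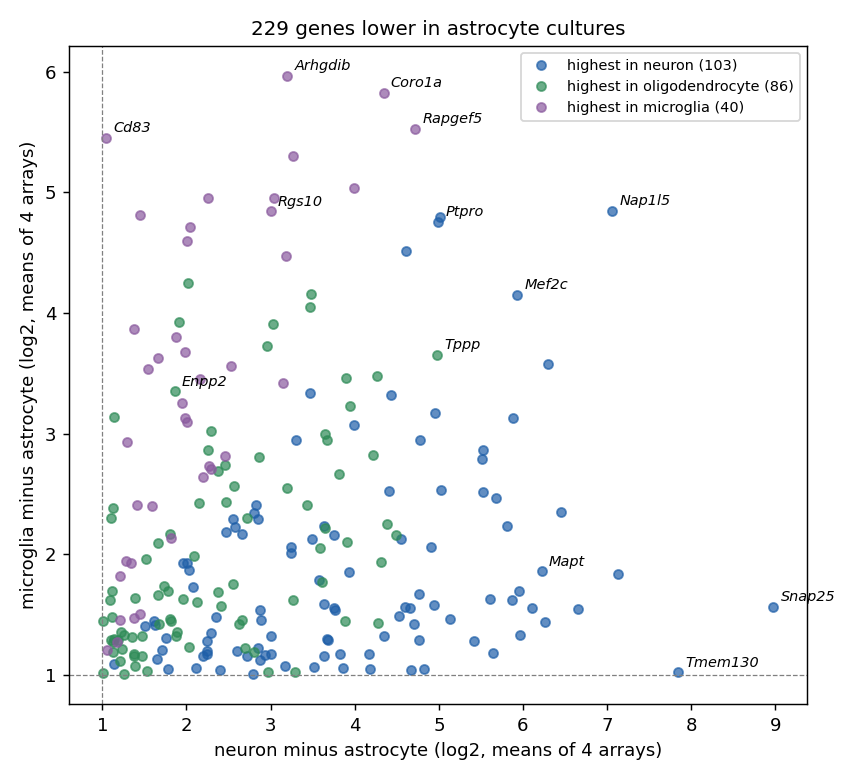
Neuron minus astrocyte difference (x axis) against microglia minus astrocyte difference (y axis), both log2 differences of means of 4 arrays, 1 point per member, coloured by the culture with the highest mean. The dashed lines mark the threshold of 1; Snap25 and Tmem130 lie far right and low, Cd83 far up and left, and Nap1l5 and Ptpro far from both lines.

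For 151 members a role could be given, in groups made after their values were seen. Each was put in a single group, so a group need not hold every member with that function. Regulators of small GTPases made up 21 members, with a median difference of 1.73, of which 6 were highest in neurons, 9 in oligodendrocytes and 6 in microglia. Chn2, a chimaerin that inactivates Rac, read 6.47, 4.93, 4.82 and 4.55 in A1 to A4 against 8.63 to 8.72 in neurons, 9.93 to 11.78 in oligodendrocytes and 8.86 to 9.71 in microglia. Arhgdib, a gene typical of blood cells, read 4.31, 5.28, 5.45 and 4.63 in A1 to A4, 7.57, 7.57, 8.65 and 8.67 in N1 to N4, 9.42 to 10.91 in oligodendrocytes and 10.34 to 11.46 in microglia. As with Coro1a, A2 and A3 were the higher astrocyte arrays for Arhgdib, and for Chn2 it was A1. The Rap-inactivating proteins Rap1gap2 and Rap1gap lay 2.53 ± 0.47 and 1.93 ± 0.30 below microglia, their nearest culture, so both an activator and inactivators of Rap were among the members. In a list of 19 measured Ras and Rap regulators 3 were members (Rapgef5, Rap1gap, Rap1gap2), with a median over the list of -0.16.

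Actin regulators and motors gave 12 members with a median of 1.79. Gas7, which binds actin in neurites, read 5.55, 5.51, 5.46 and 5.55 in A1 to A4, against 9.73 to 10.87 in neurons, 8.91 to 9.27 in oligodendrocytes and 7.29 to 9.14 in microglia. Wasf1 and Cyfip2, subunits of the WAVE complex that drives branched actin, lay 2.83 and 2.10 below their nearest culture. Fmnl1, a formin of leukocytes, was highest in microglia at 9.77 against 6.09 in astrocytes.

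Microtubule and neurofilament proteins gave 10 members with a median of 2.10, none of them highest in microglia. Tppp, a promoter of tubulin polymerisation known from oligodendrocytes, read 6.92, 4.61, 5.05 and 4.64 in A1 to A4, 10.54, 10.52, 10.08 and 10.01 in neurons, 12.19, 12.08, 9.77 and 11.53 in oligodendrocytes and 9.81, 9.20, 7.77 and 9.05 in microglia. Here A1 and M1, the arrays with the most oligodendrocyte lineage transcript in their culture, were the highest of their group, and the part of that RNA was not tested. Tubb4a, a beta-tubulin of myelinating cells, read 7.41, 5.79, 5.71 and 6.68 in A1 to A4 and 10.33, 9.63, 8.30 and 9.13 in M1 to M4, again highest in A1 and M1. Mapt, the tau protein of axons, read 12.47 ± 0.31 in neurons, 10.02 ± 0.33 in oligodendrocytes, 8.11 ± 0.63 in microglia and 6.25 ± 0.80 in astrocytes. Of 22 measured tubulins and microtubule proteins on a list, 7 were members by the rule on means, with a list median of -0.15. Limma called 6 of the list lower in astrocytes than in each other culture and 2 higher.

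Vesicle and membrane traffic gave 20 members with a median of 1.49. Sh3kbp1, an endocytic adaptor, read 6.18, 6.16, 6.16 and 5.26 in A1 to A4 and 8.82 to 9.77 in all other arrays. Apba1, a synaptic adaptor of the Mint family, read 5.13 ± 0.32 in astrocytes, 10.68 to 11.39 in the neuron arrays, 8.73 ± 0.25 in oligodendrocytes and 8.26 ± 0.38 in microglia. Of 19 measured kinesin and vesicle genes on a list, Rab6b, Sv2a and Snap25 were members, and Sv2a lost its difference of 1 without A3 (0.91), M1 (0.95) or M2 (0.91).

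Surface adhesion and guidance proteins gave 21 members with a median of 2.04, of which 15 were highest in neurons, 6 in oligodendrocytes and 0 in microglia. Opcml, a GPI-anchored immunoglobulin protein, read 5.63, 4.51, 4.65 and 5.29 in A1 to A4, 9.19 to 10.76 in neurons, 9.65 to 10.04 in oligodendrocytes and 8.67, 8.58, 7.81 and 7.69 in M1 to M4. Pcdh17, a protocadherin, lay 3.23 ± 0.29 below microglia. Ntm, a relative of Opcml, Cntn1, a contactin, and Reln, the secreted reelin of cortical layering, lay 2.52, 2.05 and 2.04 below microglia or oligodendrocytes, whichever was nearer. Of 19 measured immunoglobulin adhesion genes on a list, 4 were members (Opcml, Ntm, Cntn1, Alcam), with a list median of -0.11. Sema4a and Sema4d were the members among 19 measured semaphorins and plexins, with a list median of -0.20, and limma called 3 of the list higher in astrocytes. Both overlapped with other cultures. Sema4a read 5.22 in O1, below A2 to A4, and Sema4d read 4.24 in A4, above 3.95 in O3 and 3.99 in M3. Sema4d was not called (limma adjusted p = 0.125). Sema4a was called, but fell short of the call without A1, O3 or O4 (limma adjusted p = 0.0574, 0.0709 and 0.0596). It also fell short with A2 and A3 left out and with pairs of cultures fitted alone (limma adjusted p = 0.0705 and 0.0584).

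Protein kinases, phosphatases and lipid messengers gave 15 members with a median of 1.59. Prkcb, a calcium-dependent protein kinase C, read 5.80, 5.54, 6.12 and 7.62 in A1 to A4, 10.15 to 11.25 in neurons, 10.16 ± 0.36 (mean ± SD) in oligodendrocytes and 9.18 to 10.23 in microglia. A4, the array with the highest mean of the fibroblast list, was the highest astrocyte array, and the part of fibroblast RNA was not tested. G protein and cyclic nucleotide signalling gave 9 members, among them Rgs10, a regulator of G protein signalling, with 9.65 ± 0.10 in neurons, 8.55 ± 0.38 in oligodendrocytes and 6.65 ± 0.81 in astrocytes, and 4.85 above astrocytes in microglia. Pde4b, a cyclic AMP phosphodiesterase, lay 2.38 below neurons.

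Ubiquitin ligases gave 11 members. Marchf1, which removes MHC class II from the surface of antigen-presenting cells, read 3.58, 3.37, 3.98 and 3.57 in A1 to A4, 8.15, 8.34, 6.76 and 7.23 in N1 to N4, 7.12 to 7.77 in oligodendrocytes and 7.61 to 9.61 in microglia. N3 and N4 were the lower neuron arrays, and the groups did not overlap with astrocytes. Rnf128, a membrane ubiquitin ligase known from T cells, read 4.36 ± 0.33 in astrocytes against 7.83 ± 0.13 in neurons, its nearest culture. Lipid metabolism gave 11 members with a median of 1.5, led by Acsl4, an acyl-CoA synthetase for arachidonic acid, at 5.59, 6.34, 6.59 and 7.93 in A1 to A4 and 9.31 to 10.95 in all other arrays. Idi1 and Hsd17b7, enzymes of cholesterol synthesis, were the members among 16 measured sterol genes, whose list median was 0.16. Idi1 fell to a difference of 0.75 with A2 and A3 left out, and Hsd17b7 to 0.73 on the mean of all its probe sets.

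The role group of channels and transporters held 5 members. It does not cover all such members, since Clcn6 was put with the acidic organelle group and Abcg1 with lipid metabolism. Slc1a1, the glutamate transporter named for neurons, read 6.05, 5.12, 5.16 and 4.94 in A1 to A4, 9.10 to 9.46 in neurons, 10.36 to 10.67 in oligodendrocytes and 9.53, 9.07, 7.96 and 8.53 in M1 to M4. It was the sole member among 17 measured amino acid transporters. None of 15 measured potassium channels and none of 14 sodium and calcium channels was a member, in 13 and 7 of which the astrocyte mean lay below every array median. Among transcription and RNA-binding proteins (11 members), Mef2c, a factor of neurons and myeloid cells, read 12.28, 12.42, 10.88 and 10.75 in N1 to N4, 9.36 to 10.06 in microglia, 6.92 to 8.16 in oligodendrocytes and 5.57 to 5.75 in astrocytes. The proton pump and acidic organelle group (5 members) lay close to the threshold, at 1.01 to 1.23, and 0 of 13 measured lysosome genes on a separate list were members.

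Of 16 neuron markers 5 were members, namely Gap43, Snap25, Dcx, Tubb3 and Elavl4, where 1.61% of all genes were, and the list median was 0.33. For Snap25, Dcx and Elavl4 the nearest culture, microglia, itself averaged 5.18, 5.12 and 4.90, against 3.61, 3.57 and 3.85 in astrocytes. Both means of each gene lay below every array median (5.25 to 5.31), and their distance from background is not known. Other markers of the list did not meet the rule. Stmn2, a stathmin of growing neurites, averaged 11.47 in astrocytes, below the 13.19 of neurons but above the 6.06 of oligodendrocytes and 4.86 of microglia. Map2, Syn1 and Rbfox3 also stood above the lowest other culture in astrocytes, with smaller differences of -0.65, -0.62 and -0.22. The median of this quantity over all genes was -0.29. Rbfox3 averaged 4.27 in astrocytes, 4.05 in microglia and 4.59 in oligodendrocytes, all below every array median. Gap43, a growth cone protein, read 8.09, 7.0, 7.08 and 4.59 in A1 to A4, 11.97 to 12.46 in neurons, 9.99 to 11.12 in oligodendrocytes and 8.83 to 9.89 in microglia. Tubb3, the neuronal beta-tubulin, overlapped between A4 at 5.31 and M3 at 5.22. Elavl4 fell below a difference of 1 without A2 (0.92), M1 (0.87) or M3 (0.89). With A2 and A3 both left out, the difference was 1.62 for Snap25, 1.47 for Dcx, 0.86 for Tubb3 and 0.95 for Elavl4. All of these then fell short of the call (limma adjusted p = 0.0518, 0.0508, 0.114 and 0.0701). On the mean of all probe sets of the gene, the difference was 0.79 for Dcx and 0.85 for Tubb3, below the threshold. No astrocyte, microglia or mature oligodendrocyte marker was a member, of 14, 17 and 12 measured.

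The members' genes were long. Their median length from start to end in RefSeq was 66556 bp against 22338 bp over all genes with a length, and 40.6% of them against 13.7% spanned at least 100000 bp. Members highest in neurons had a median of 88956 bp and those highest in microglia 43956.5 bp. The members comprised 225 protein-coding genes and 4 long noncoding RNAs.

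The mixtures replaced astrocyte RNA by RNA of other cultures in known shares. Their RNA was that of cultures the rule had used, so a rise of the members with neuronal RNA was largely fixed by how they were chosen. The counts show how far separate hybridisations gave that rise, and are no independent support. Across NA1, NA2 and NA3, 184 of the 229 members rose with the neuronal RNA fraction (limma adjusted p under 0.05), and 0 fell, while 2 had a slope of 0 or below. Over all genes 11% rose and 7.69% fell. With the parent cultures as a replicate block 208 members rose, against 14.5% of all genes. The median slope of the members was 2.08 log2 units per unit of neuronal fraction, against -0.02 over all genes. Mixing the linear values of the parent cultures in the stated shares gave a computed median slope of 2.22 for the members. The measured slope was below the computed one in 168 of 229 members.

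Ptpro read 7.07 and 6.83 in NA1, 7.77 and 8.11 in NA2 and 8.37 and 8.34 in NA3. The 3 mixtures did not overlap, and the slope was 2.81 ± 0.40 (SE, limma adjusted p = 0.0072, n = 6 arrays) where 2.89 was computed. Coro1a rose from 7.90 and 7.98 in NA1 over 8.74 and 8.72 in NA2 to 9.37 and 9.26 in NA3, a slope of 2.75 ± 0.22 (limma adjusted p = 0.00404). Nap1l5 rose by 2.20 ± 0.36 per unit (limma adjusted p = 0.0109), below the computed 3.07, and Snap25 by 2.07 ± 0.26 (limma adjusted p = 0.00541), below the computed 3.15. Of the members highest in neurons 102 of 103 rose, of those highest in oligodendrocytes 56 of 86 and of those highest in microglia 26 of 40. Olig1 and Ube3al1 had slopes of -0.28 ± 0.77 and -0.85 ± 0.87, and neither passed the test (limma adjusted p = 0.872 and 0.628).

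Replacing part of the astrocyte RNA at a fixed neuronal fraction gave fewer calls. In NAO against NA2, 23 of 229 members were higher and 0 lower (1.44% and 0.239% of all genes), and with the replicate block 50 were higher (2.73% of all genes). Without the first or the second array of each mixture the count was 79 and 65. In NAOM against NA2, 32 were higher and 0 lower (2.22% and 0.521% of all genes), and with the block 62 were higher (3.87% of all genes), while 83 and 98 were without the first or the second arrays. Both comparisons share the NA2 arrays. The median difference of the members was 0.25 in NAO, where 0.36 was computed from the parents, and 0.34 in NAOM, where 0.43 was computed. Over all genes the measured medians were -0.03 and -0.01.

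The calls in NAO fell on members highest in oligodendrocytes (20 of 86) and microglia (3 of 40), and 0 of the 103 highest in neurons were called by limma, with or without the block, where 10 had an unadjusted p under 0.05 and a higher level. In NAOM the counts were 23 of 86, 9 of 40 and 0 of 103, with 22 of the last at an unadjusted p under 0.05. Whether these shares differ between the classes was not tested. The classes rest on the culture means and the mixtures on RNA of those cultures, so this split was largely fixed in advance. The median NAO difference computed from the parents was 0.16 for members highest in neurons. It was 0.71 for those highest in oligodendrocytes and 0.36 for those highest in microglia. Enpp2, which makes the lipid messenger lysophosphatidic acid and is known from oligodendrocytes, read 6.54 and 6.43 in NA2, 8.69 and 9.24 in NAO and 8.65 and 8.92 in NAOM. The NAO difference was 2.48 ± 0.20 and the NAOM difference 2.30 ± 0.20 (limma adjusted p = 0.00146 and 0.00143), where 2.35 and 2.16 were computed. In the cultures Enpp2 read 7.46 and 7.5 in N1 and N2 but 4.91 and 4.82 in N3 and N4, so the last 2 neuron arrays were close to the 4.06 to 4.62 of astrocytes. Chn2 read 8.0 and 7.99 in NA2 and 9.77 and 9.73 in NAO, a difference of 1.76 ± 0.10 (limma adjusted p = 0.000237).

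Cd83, a surface protein of activated myeloid cells, was called in NAOM and not in NAO by the fit without the replicate block. This difference between the mixtures was not itself tested. Cd83 read 6.22 and 5.91 in NA2, 6.86 and 6.55 in NAO and 8.49 and 7.74 in NAOM. The NAOM difference was 2.06 ± 0.29 (limma adjusted p = 0.0136), and the NAO difference of 0.64 ± 0.29 did not pass (limma adjusted p = 0.585). Each NAO array lay above the NA2 array of the same number, which shares parent cultures with it. The fit took no account of this pairing. Arhgdib read 6.65 and 6.92 in NA2, 8.13 and 8.68 in NAO and 8.74 and 9.06 in NAOM, a difference of 1.62 ± 0.20 and 2.11 ± 0.20 (limma adjusted p = 0.012 and 0.00212). Coro1a was 0.83 ± 0.11 higher in NAOM (limma adjusted p = 0.0119), where 0.90 was computed, and Rapgef5 0.78 ± 0.12 (limma adjusted p = 0.0225), where 0.94 was computed. The microglial cultures that entered the mixtures, M2 and M3, carried oligodendrocyte transcripts as given above.

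**Figure D4:**
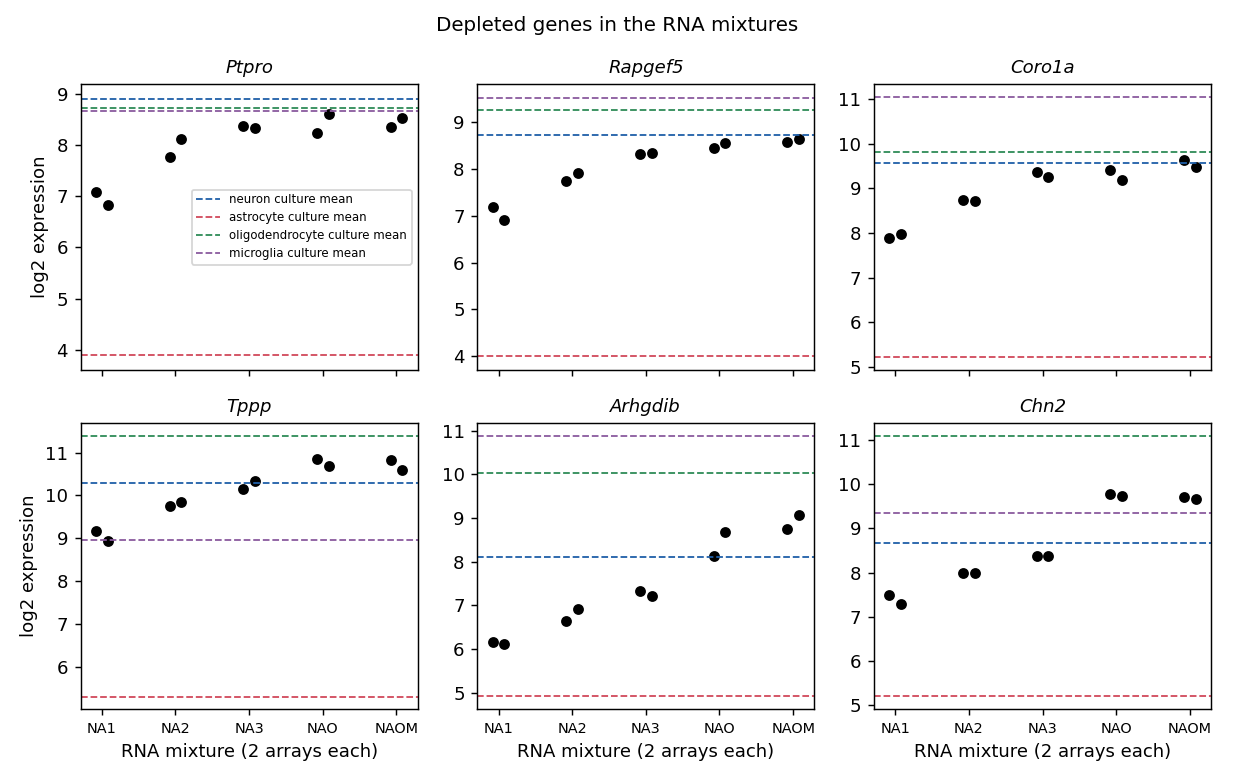
Log2 level of 6 members in the 5 RNA mixtures, 2 arrays each (black points), with the mean level of each culture as a dashed line. All 6 genes rise from NA1 to NA3, and Chn2 and Arhgdib lie higher in NAO and NAOM than in any neuron and astrocyte mixture.

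**Figure D5:**
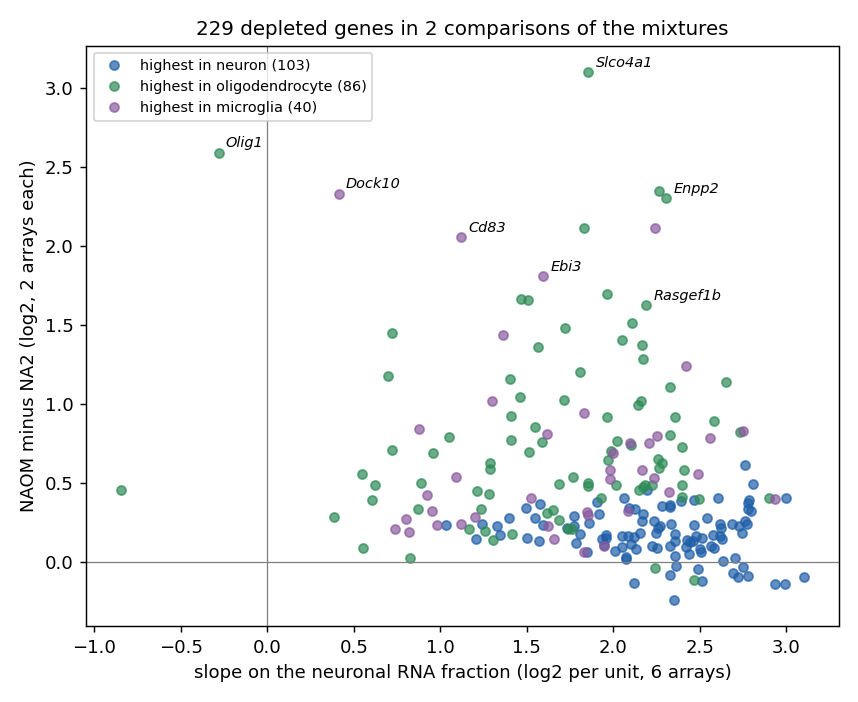
Slope on the neuronal RNA fraction in NA1 to NA3 (x axis, log2 per unit, 6 arrays) against the NAOM minus NA2 difference (y axis, log2, 2 arrays each), 1 point per member, coloured by highest culture; NA2 enters both. Members highest in neurons lie low on the y axis with slopes from 1.03 to 3.11, and Olig1, Dock10 and Cd83 combine a high NAOM difference with slopes of -0.28, 0.41 and 1.12.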

How the data were processed

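Total RNA of 16 culture and 10 mixture arrays was measured. The deposited table holds log2 values of 31099 probe sets, which per the submitters' processing notes were made by the authors with RMA (affy), versions not given. RMA corrects background, normalizes all arrays together and summarises probes, and it can compress differences of dim probes. After 57 control probe sets were left out, 31042 were tested. The platform annotation gave 20826 of them 1 gene symbol, 436 several and 9780 none. Of those with 1 symbol, 20758 matched GRCr8. Each of 14217 genes was read from the probe set of highest mean level across all 26 arrays, with no filter on low values. Arrays carry no read depth, and their number limits the precision.

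Contrasts used limma 3.58.1 in R 4.3.3 (lmFit, eBayes, Benjamini-Hochberg over all probe sets), with 1 mean per culture or mixture and, for NA1 to NA3, a slope on the neuronal fraction. Tables were made with pandas 2.3.3. On simulated data with changes of 1.5 and 3 log2 units, 87% and 100% of those planted in the culture comparison were called, and 78% and 90% in NAO against NA2. In the slope fit 51% of slopes of 2 and 88% of slopes of 5 were called. In the simulated culture comparison 16 unchanged probe sets met the rule on means, and 0 were called. The simulated noise was independent between arrays, unlike that of same-numbered mixture arrays, so the shares for the mixtures need not hold for these data. The changes planted in NAO also exceeded the median computed for the members there (0.36). The share of calls at changes of that size was not simulated.

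Genes named are the 24 with the largest difference, the 8 largest per highest culture, members of 12 marker and 23 function lists, and the 3 on each side of the threshold. The examples of the role groups and of the mixtures were chosen after their values were seen. Members, lists and the role groups were all chosen with earlier results of these data known. Nothing in the labels says which cultures came from separate litters, so p-values measure the spread between these arrays. Same-numbered mixture arrays share parent cultures per the labels, and their deviations correlated at 0.38 to 0.87. Standard errors and p-values of single genes in the mixtures are from the fit without the replicate block. Same-numbered cultures correlated at -0.11 to 0.18, and their numbers were not used as pairs. Alternatives covered normalization, the probe set per gene, the minimum difference, the fit, a replicate block and leaving out arrays. The result of 1 function list is not reported here.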

Additional observations from a re-analysis of the deposited data

Results flagged for a closer look

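For 26 named members and the mean of all members, 108 groups of 4 arrays were searched for an array far from the other 3, and 3 were found, where chance gives about 1 group in 20. Sh3kbp1 read 5.26 in astrocyte replicate 4, below the 6.16 to 6.18 of the other astrocyte arrays. Rapgef5 read 8.76 in neuron replicate 2, beside 8.70 to 8.71 in the other neuron arrays. Sh3bp5 read 8.07 in neuron replicate 1, beside 7.93 to 7.94 in the others.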

How the results depend on the processing

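The number of members depends on the threshold: at a minimum difference of 0.5, 1.5 and 2 there were 598, 117 and 62 genes, and 497, 116 and 61 were called lower than each other culture. Other settings gave 183 genes (mean of all probe sets) to 244 (medians of arrays), and 171 to 249 called, the lowest with A2 and A3 left out, which was added after the data were seen. Leaving out 1 culture array gave 216 to 249 members and 201 to 236 calls. With a replicate block on cultures 217 were called. In the mixtures, the block on parent cultures raised the members called from 184 to 208 for the slope, from 23 to 50 in NAO and from 32 to 62 in NAOM. The cause of the rise was not tested. Leaving out a mixture replicate gave 191 to 212, 65 to 79 and 83 to 98. With it a single array per mixture is left, the fit sets the 3 neuron and astrocyte mixtures on a line, and the remaining arrays are assumed to vary alike. Of 1612 alternative values for 62 results on named genes, 1562 kept direction and call, 38 in 14 genes fell short of the call, 12 gained it and 0 changed direction. Of the 38, 9 came with A2 and A3 left out and 7 with the mean of all probe sets. Cep170 and Ddhd1 at the threshold were among them, Nr4a1 fell to 0.97 without N1 and 0.95 without M1. Of 109 members with several probe sets, 36 met the rule in all and 91 lay below every culture in all. No detection calls were used, so how far the 90 astrocyte means below every array median lie above background is not known.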
